A study of Mus musculus with 14 samples.

Results

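The comparison described here set 5 inhibitors whose target label names JAK1, JAK1/2, PAN or JAK3 against 2 whose labels name JAK2 and TYK2, in mouse CD4+ T cells after 2 h. It used 7 of the 14 arrays of the series, chosen by the target label and the time, not by any measured value. The sample titles read IFN.3404 (JAK1), IFN.6221 (JAK1/2), IFN.6222 (PAN, here counted with JAK1 and JAK3), IFN.6226 and IFN.6228 (both JAK3), IFN.3885 (JAK2) and IFN.2485 (TYK2), where the digits are the inhibitor's code. Each inhibitor is called below by its target label, and the JAK3 pair by title. The cells were CD4+ T cells taken by negative selection from spleens of 6 week old male C57BL/6 mice, and they had been activated with CD3/28 beads for 48 h. All 7 cultures then received interferon alpha at 100 U/ml together with 1 inhibitor at its IC80, and the same inhibitors were also sampled at 8 h. The labels give no genetic change, and whether animals were pooled is not given in the sources used here. The arrays were Affymetrix Mouse Gene 1.0 ST, and each value below is a log2 intensity or a difference of log2 intensities. There was 1 array per inhibitor and time, so every p measures the spread between inhibitors and none measures the spread between repeated cultures. Cultures without inhibitor were not analysed here, so no value says how far any inhibitor moved a gene from the untreated state.

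Receptors for interleukin-2, interleukin-4, interleukin-7, interleukin-9, interleukin-15 and interleukin-21 share the common gamma chain and signal through JAK1 and JAK3. In T cells that carry the interleukin-2 receptor, these kinases chiefly phosphorylate STAT5, which enters the nucleus and induces genes such as Cish and the Socs family, whose proteins damp the same pathway. The receptor for type I interferon uses JAK1 with TYK2, and JAK2 serves other receptors, among them the interferon gamma receptor. The comparison therefore asks which genes separate inhibitors aimed at the kinases of the common gamma chain receptors from inhibitors aimed at the other JAK family members.

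The pattern TTCNNNGAA, which STAT5 dimers are known to bind, was searched for in RefSeq promoter windows of assembly GRCm38.p6 that run from 250 bases before to 50 bases after a transcript start. The pattern reads the same on both strands. It was present in 2726 of 32851 windows (8.3%) and in 776 of the 9497 tested genes that had a window (8.17%). The stretches below belong to genes described in the following paragraphs, and each is written 5′ to 3′ on the gene's strand with the pattern in capitals. They are shown because these genes did not overlap between the inhibitor classes and hold the pattern. Other genes that did not overlap lack it, as counted below. In Cish the first base of the annotated transcript opens the pattern and a second copy follows, at chr9:107296654-107296683 (plus strand).
Cish: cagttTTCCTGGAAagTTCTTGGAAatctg
In Lta 2 copies lay 152 and 16 bases before the start, at chr17:35205485-35205513 and chr17:35205349-35205377 (minus strand).
Lta: accatcactcTTCAGGGAAccaggcttcc
Lta: ccgactccctTTCCCAGAAcgcagtagtc
In Socs3 the copy lay 154 bases before the start, at chr11:117969502-117969530 (minus strand), and in Ifng 249 bases before it, at chr10:118440796-118440815 (plus strand).
Socs3: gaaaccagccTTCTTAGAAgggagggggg
Ifng: tTTCAGAGAAtcccacaaga
Among genes that were higher with the inhibitors naming JAK1 or JAK3, 1 of the 2 windows of Bcl6 held 3 copies, 168, 122 and 88 bases before its start, at chr16:23981433-23981461, chr16:23981387-23981415 and chr16:23981353-23981381 (minus strand).
Bcl6: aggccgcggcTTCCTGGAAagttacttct
Bcl6: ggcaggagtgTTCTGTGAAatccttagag
Bcl6: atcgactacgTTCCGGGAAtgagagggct
In Il7r the copy lay 142 bases before the start, at chr15:9530000-9530028 (minus strand).
Il7r: gttcaggagcTTCAGGGAAtaccaagatg
Of all windows, 150 (0.457%) held 2 or more copies. A match is a run of letters, and no binding was measured here.

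Across the 11851 genes bright enough to test, 5 passed the threshold of an adjusted p under 0.05 and were higher with the inhibitors naming JAK1 or JAK3 (0.0422% of the genes tested). None passed in the other direction (0%), with limma and Benjamini-Hochberg adjustment over all genes. At an unadjusted p under 0.05 there were 1055 genes, 822 higher and 233 lower. Values of the 5 inhibitors all lay above both others in 1346 genes (11.4%) and all below both in 424 (3.58%). These shares are the background against which the gene groups below are read. The median difference over all genes was 0.02 on the log2 scale. Arrays of the 2 h set correlated with Pearson r between 0.9942 and 0.998 across genes, which are not independent replicates.

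Before the gene groups, markers of cell types were checked. Cd3e and Cd4 were at 12.31 to 12.36 and 11.62 to 11.77 with the 5 inhibitors, and at 12.27 to 12.28 and 11.50 to 11.61 with the other 2. Of the 7 T cell markers tested, 5 (71.4%) were higher without overlap, against 11.4% of all genes, with a median difference of 0.08. The mean of this list did not overlap either, at 11.46 to 11.52 with the 5 inhibitors against 11.40 to 11.41. No pathway list described below had so high a share of members higher without overlap. The 3 platelet markers had a mean of 6.91 to 7.43 with the 5 inhibitors and 6.63 to 6.78 with the JAK2 and TYK2 inhibitors. Ppbp, a platelet chemokine, led this list at 6.84 to 7.93 against 6.22 and 6.66 (difference 1.13, adjusted p = 0.1751, limma), and Itga2b, the platelet integrin chain, overlapped. Markers of B cells (5 of 6 measured), macrophages (7 of 7), granulocytes (6 of 6), NK cells (4 of 5) and dendritic cells (5 of 5) had list means that overlapped between the classes, as did those of CD8 T cells, fibroblasts and erythroid cells. The mean of the 4 NK cell markers was 4.12 to 4.39 and that of the granulocyte markers 5.51 to 5.64 on all 7 arrays, below the limit of 6.269 used for testing. The 10 skeletal muscle markers had a mean of 7.10 on the array of the JAK1/2 inhibitor and 6.35 to 6.60 on the other 6. The part of these markers in the results below was not tested, and in bulk RNA fewer cells of a type and less RNA per cell cannot be told apart.

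Of the 19 pathway lists, that of genes induced by STAT5 had the highest share of members lower without overlap. All 37 members of the list were measured and tested, and 16 of them were lower with every inhibitor naming JAK1 or JAK3 than with either the JAK2 or the TYK2 inhibitor. That is 43.2%, against 3.58% of all genes tested, and no member was higher without overlap. The difference was negative in 32 of the 37, with a median of -0.14 beside 0.02 over all genes. The list mean was 9.826 to 10.021 with the 5 inhibitors, against 10.065 with the TYK2 and 10.253 with the JAK2 inhibitor. The gap to the TYK2 inhibitor was thus narrow. Between the JAK2 and TYK2 arrays the members differed by a median of 0.16, about as much as between the classes. No single member passed the adjusted threshold (limma), and 18 were lower at an unadjusted p under 0.05. Without the TYK2 inhibitor the count without overlap was 27 of 37, but the share over all genes was then 16.5%, since 1 array fewer had to be passed.

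**Figure D1:**
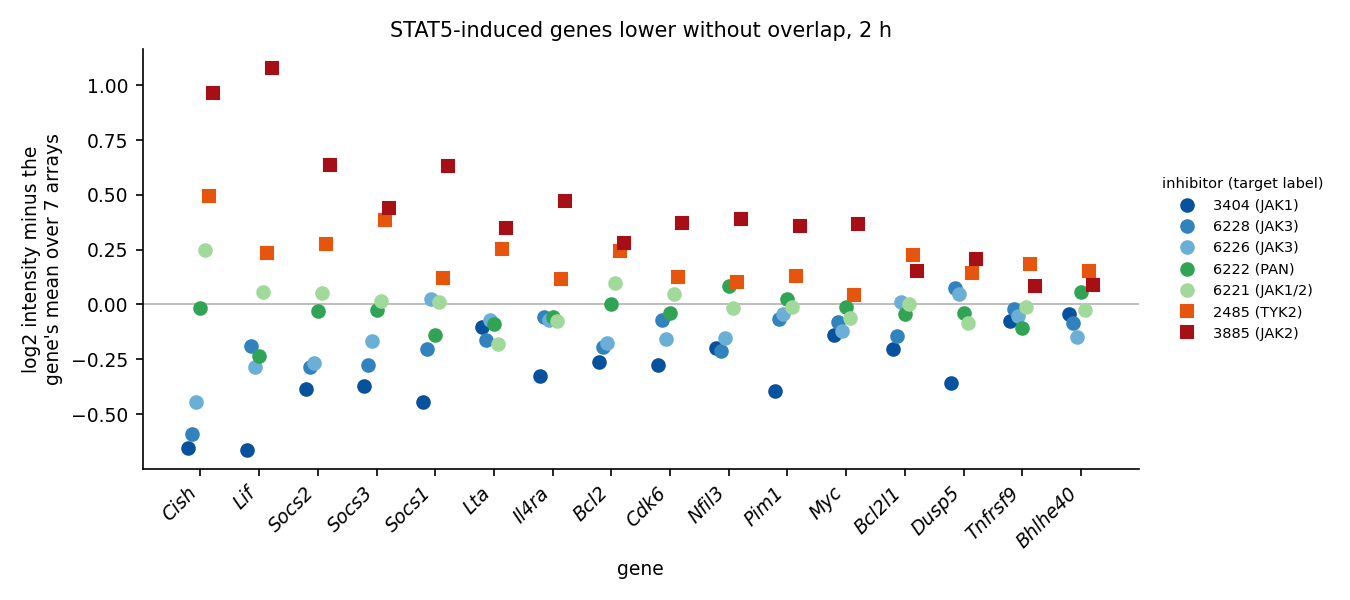
Log2 intensity of the 16 STAT5-induced genes that did not overlap between the classes at 2 h, as the deviation from each gene's mean over the 7 arrays. Each point is 1 array (circles, inhibitors naming JAK1 or JAK3; squares, JAK2 and TYK2 inhibitors), and the squares lie above all circles in each gene, with the JAK2 inhibitor highest in 13 of the 16.

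Among the feedback inhibitors of cytokine signalling in this list, Cish, which docks on activated cytokine receptors and limits STAT5 signalling, was at 8.98 with the JAK1 inhibitor, 9.05 with IFN.6228 and 9.20 with IFN.6226. It was at 9.62 with the PAN and 9.89 with the JAK1/2 inhibitor, against 10.61 with the JAK2 and 10.13 with the TYK2 inhibitor. The single-target JAK1 and JAK3 inhibitors thus gave the lowest levels, and the inhibitors whose labels span JAK2 or all JAKs lay between them and the other class. The mean was 9.35 ± 0.39 (SD, n = 5) against 10.37 ± 0.33 (n = 2), a difference of -1.02 (SE 0.22, 95% interval -1.51 to -0.54, 2.03-fold), and it did not pass over all genes (limma adjusted p = 0.166). Socs2, a suppressor of cytokine signalling, followed the same order, from 9.76 with the JAK1 inhibitor through 9.86 and 9.88 with the JAK3 pair to 10.12 (PAN) and 10.20 (JAK1/2), against 10.79 and 10.42. Its difference was -0.64 (SE 0.12, limma adjusted p = 0.1364). Socs3 repeated that order once more, at 7.78, 7.87, 7.98, 8.12 and 8.17 against 8.59 with the JAK2 and 8.53 with the TYK2 inhibitor. Its difference was -0.58 (SE 0.10, limma adjusted p = 0.1095). Socs1, which binds JAK kinases directly, lay between 9.17 and 9.64 with the 5 inhibitors, against 9.73 with the TYK2 and 10.24 with the JAK2 inhibitor, so the gap to the TYK2 inhibitor was small.

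The rest of the feedback list did not share this. Of its 18 members, all tested, 4 were lower without overlap (22.2%, against 3.58% of all genes), and these were Cish, Socs1, Socs2 and Socs3. Pias2 and Ptpn6 were higher without overlap (11.1%, near the 11.4% of all genes), and the median of the list was 0.03. Socs4, Socs5, Socs6 and Socs7 had differences from -0.08 to 0.11 and overlapped.

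Secreted and surface proteins induced downstream of STAT5 came next. Lta, the cytokine lymphotoxin alpha, was at 7.66 to 7.78 with the 5 inhibitors, against 8.20 with the JAK2 and 8.10 with the TYK2 inhibitor. It had the smallest p of all genes that were lower (difference -0.42, SE 0.07, limma adjusted p = 0.0947). In contrast to Cish, the 5 inhibitors gave nearly 1 level for Lta (SD 0.05), and the JAK1 inhibitor was not the lowest. Lif, a cytokine of the interleukin-6 family, ranged from 7.11 with the JAK1 to 7.83 with the JAK1/2 inhibitor, against 8.00 with the TYK2 and 8.85 with the JAK2 inhibitor (difference -0.92, SE 0.21, limma adjusted p = 0.1914). Il4ra, the receptor chain for interleukin-4, was at 10.28 with the JAK1 inhibitor and 10.53 to 10.54 with the other 4, against 11.07 (JAK2) and 10.72 (TYK2).

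Genes of survival and growth in the list had smaller differences. Bcl2, which blocks apoptosis, was at 11.17 with the JAK1 inhibitor, 11.24 and 11.26 with the JAK3 pair, 11.44 with the PAN and 11.53 with the JAK1/2 inhibitor, against 11.71 and 11.68 (difference -0.37, SE 0.09). Bcl2 thus kept the order of Cish, Socs2 and Socs3. The related Bcl2l1 differed by -0.26, and both genes lay below the range of the other class. Myc, a driver of cell growth, differed by -0.29, the kinase gene Pim1 by -0.34, the cell cycle kinase gene Cdk6 by -0.35 and Nfil3, a transcription factor of T cell differentiation, by -0.35, all without overlap. Dusp5, Tnfrsf9 and Bhlhe40 completed the 16, with differences of -0.25, -0.19 and -0.17.

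The other 21 members overlapped, and among them were the receptor chains of interleukin-2 itself. Il2ra lay at 12.72 to 12.85 against 12.93 and 12.84, and Il2rb at 12.24 to 12.45 against 12.48 and 12.36. Ccnd2, Gzmb and Osm also overlapped, with differences of -0.15, -0.08 and -0.14. The 5 members with a difference above 0 were Rgs16 at 0.20, Prdm1 at 0.06, Ccr4 at 0.03, Furin at 0.02 and Ctla4 at 0.00. Of the 13 non-overlapping members with a promoter window, 4 held the pattern (Cish, Lta, Socs3 and Tnfrsf9), and of the 17 overlapping members with a window, 4 did as well.

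Genes that interleukin-2 is known to lower had the opposite order. Of 14 listed, 12 were measured and tested, and 5 of these (41.7%) were higher with all 5 inhibitors than with either of the other 2, against 11.4% of all genes. None was lower without overlap, and the median was 0.08. A high share of this kind was not particular to the list. It was 71.4% in the T cell markers, with the same median of 0.08, and 55.6% in the JAK and STAT proteins. None passed the adjusted threshold (limma), while 4 were higher at an unadjusted p under 0.05. Il7r, the receptor chain for interleukin-7, was at 11.57 to 11.66 with the 5 inhibitors, against 11.40 with the JAK2 and 11.12 with the TYK2 inhibitor (difference 0.36, SE 0.07, limma adjusted p = 0.1364). Bcl6, the transcriptional repressor of follicular helper T cells, was at 8.97 with the JAK1 inhibitor, 9.03 with IFN.6228, 8.88 with IFN.6226, 8.65 with the PAN and 8.61 with the JAK1/2 inhibitor, against 8.24 and 8.48 (difference 0.47, SE 0.12). For Bcl6 the single-target JAK1 and JAK3 inhibitors were farthest from the other class, as they were for Cish with the sign turned. Cxcr5, the chemokine receptor that guides such cells to B cell follicles, ranged from 6.48 to 6.91 against 6.32 and 6.38. Il6ra and Btla completed the 5 with differences of 0.16 and 0.10. The 7 that overlapped included Klf2 at -0.06, S1pr1 at 0.07 and Ccr7 at 0.03, all genes of T cell migration. The pattern was found in the windows of Bcl6 and Il7r among 4 non-overlapping members with a window, and in 0 of 5 overlapping ones.

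**Figure D2:**
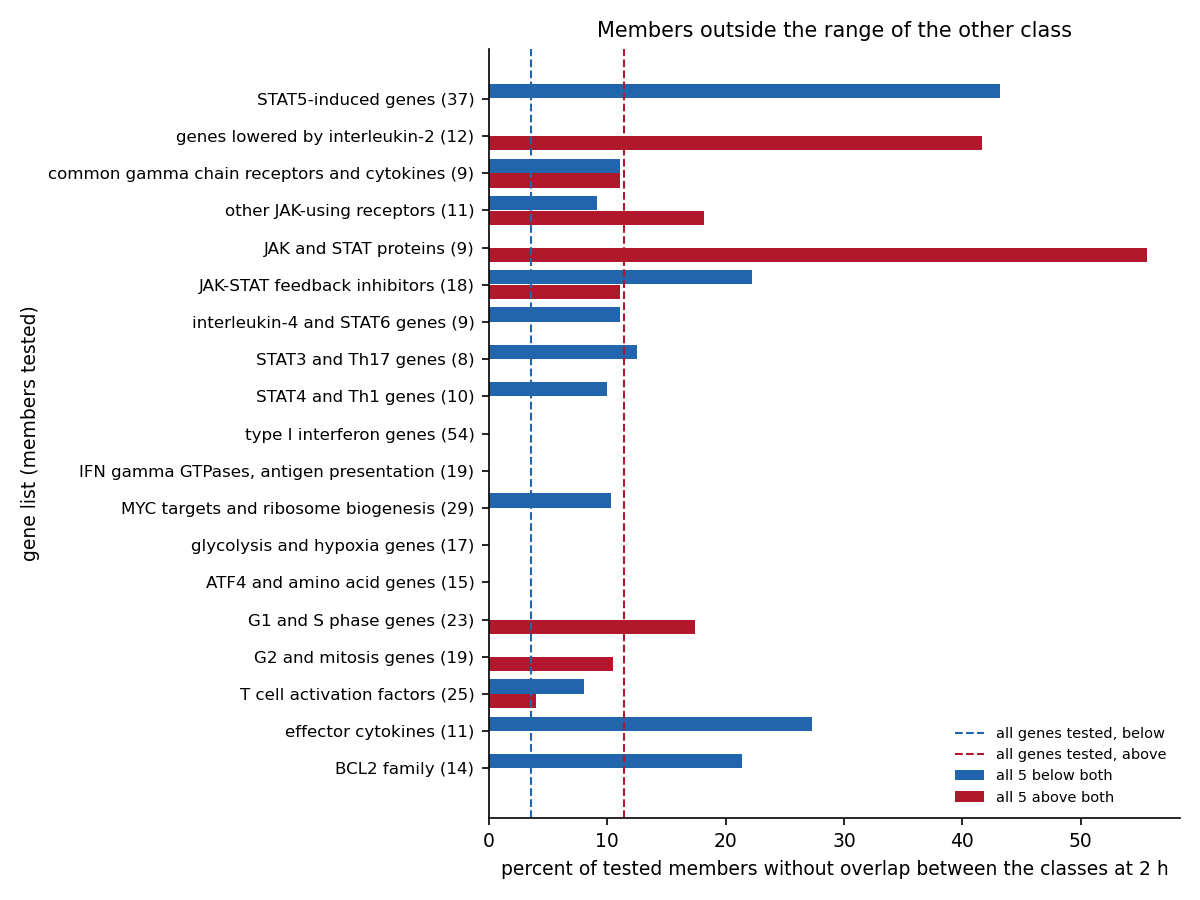
Percent of the tested members of each gene list whose 5 values with inhibitors naming JAK1 or JAK3 all lay below (blue) or above (red) both other values at 2 h. Dashed lines give the same over all genes tested (3.58% below, 11.4% above). The STAT5-induced genes stand at 43.2% below. The JAK and STAT proteins (9 tested) stand at 55.6% above and the genes lowered by interleukin-2 at 41.7% above.

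The 5 genes that passed over all genes belonged to none of these lists, and each was higher with the inhibitors naming JAK1 or JAK3 (limma adjusted p = 0.0469 for each). Ccr9, a chemokine receptor of gut-homing T cells, was at 8.41 with the JAK1 inhibitor, 8.09 with IFN.6228, 8.17 with IFN.6226, 8.15 with the PAN and 8.22 with the JAK1/2 inhibitor, against 7.55 with the JAK2 and 7.57 with the TYK2 inhibitor. It was 1.56-fold higher (log2 difference 0.65, SE 0.09, 95% interval 0.45 to 0.84). Fcgr3, a low-affinity Fc receptor, was at 7.72 to 7.95 against 7.22 and 7.21, a rise of 0.62 (SE 0.08, 1.54-fold). Trps1, a GATA-type transcriptional repressor, rose by 0.56 (SE 0.08), from 7.43 and 7.19 to values of 7.81 to 7.93. Tdrp rose by 0.53 (SE 0.07), from 8.73 and 8.78 to values of 9.21 to 9.38. Cmah, the enzyme that makes N-glycolylneuraminic acid, rose by 0.45 (SE 0.06), from 10.32 and 10.33 to values of 10.71 to 10.87. In all 5 genes the gap between the classes was wider than the range within either. The exact two-sided permutation p of each was 0.0952, the smallest that the 21 arrangements of 5 against 2 allow. None of the 5 passed with quantile normalization or cyclic loess, although the differences of Fcgr3 and Ccr9 stayed at 0.60 to 0.62. Trps1 and Cmah did not pass when probe sets were averaged. The number that passed was 0 when any 1 inhibitor was left out, except the JAK1 inhibitor, without which 7 passed.

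**Figure D3:**
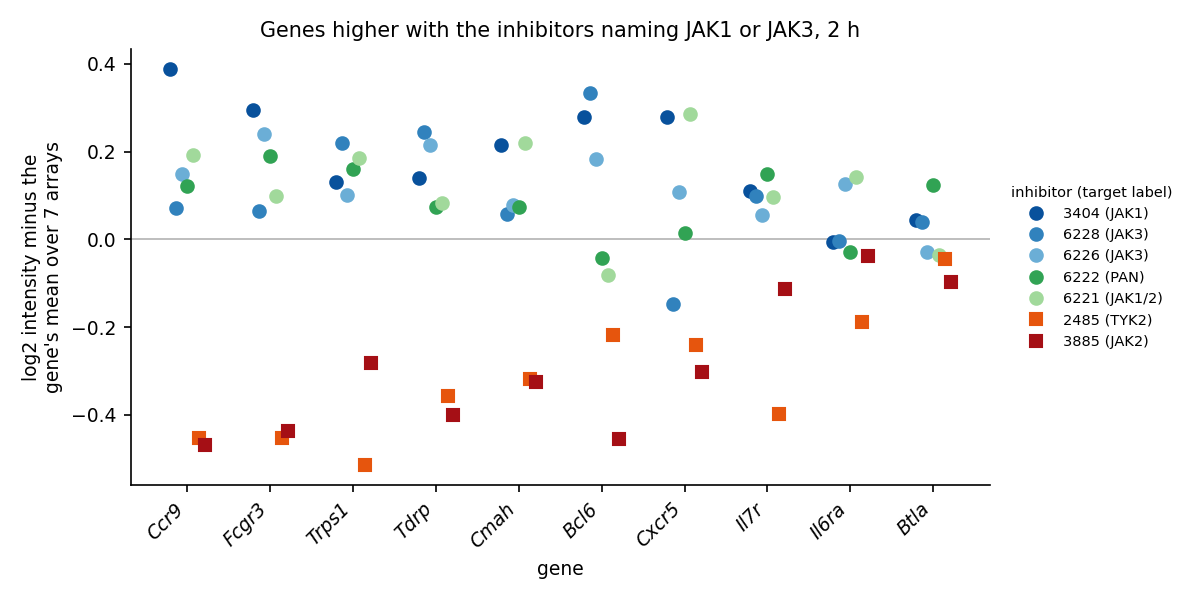
Log2 intensity at 2 h, as the deviation from each gene's mean over 7 arrays, of the 5 genes that passed the test (Ccr9, Fcgr3, Trps1, Tdrp and Cmah) and the 5 genes lowered by interleukin-2 that did not overlap. Circles are the inhibitors naming JAK1 or JAK3 and squares the JAK2 and TYK2 inhibitors, and every circle lies above both squares in each gene.

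Receptors, cytokines and signalling proteins of the pathway were then read as lists. Of 14 common gamma chain receptors and cytokines, 13 were measured and 9 tested, with Il4ra lower and Il7r higher without overlap and the other 7 overlapping. Each of these is 11.1% of those tested, against 3.58% of all genes lower and 11.4% higher. The share that was higher is thus near that of all genes. Il7, Il9, Il15 and Il21 were below the limit for testing, and Il2rg has no probe set of its own here. The transcript of interleukin-2 itself did not follow the classes. Il2 was at 9.69 with the PAN and 9.88 with the JAK1/2 inhibitor and highest with the JAK1 inhibitor, but at 9.27 and 9.28 with IFN.6228 and IFN.6226, against 9.84 (JAK2) and 9.65 (TYK2). Of 11 JAK and STAT proteins, 9 were tested, and Jak1, Tyk2, Stat4, Stat5b and Stat6 were higher without overlap, with Stat4 at 0.21, Tyk2 at 0.15, Stat6 at 0.12, Jak1 at 0.09 and Stat5b at 0.06. That is 55.6% of those tested, against 11.4% of all genes, and none passed (limma). Jak2, Stat3 and Stat5a overlapped. Jak3 has no probe set of its own here and is not analysed. Of 15 receptors that use other JAK pairs, 11 were tested. Ifngr2, a chain of the interferon gamma receptor, was lower without overlap (11.24 to 11.41 against 11.50 and 11.55), and Ifnar2 and Il6ra were higher. These are 9.09% lower and 18.2% higher, against 3.58% and 11.4% of all genes, and rest on 1 and 2 genes.

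Effector cytokines had a median of -0.12, which became -0.02 with no filter on dim genes and -0.02 with a 60th percentile filter. Of 11 tested members, 3 were lower without overlap (27.3%), against 3.58% of all genes, and 0 were higher. The 3 lower members were Lta, described above, Ifng and Tnf. Ifng, the cytokine of Th1 cells, was at 6.91 to 7.20 with the 5 inhibitors, against 7.52 with the JAK2 and 7.64 with the TYK2 inhibitor (difference -0.52, SE 0.09, limma adjusted p = 0.1071). Tnf was at 9.96 to 10.07 against 10.23 and 10.30, a difference of -0.25. Il4 overlapped, because the TYK2 inhibitor at 8.00 lay below the PAN and JAK1/2 inhibitors at 8.10 and 8.13. Another 8 measured members of this list were below the limit for testing. Prnp, which is in no list, was among the 5 lower genes with the smallest p (7.16 to 7.50 against 7.83 and 7.77, limma adjusted p = 0.1473).

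Of 29 MYC targets and ribosome biogenesis genes, 26 had a negative difference (median -0.08). Of these, 3 were lower without overlap (10.3%, against 3.58% of all genes), which were Myc, Nop56 and Fbl. T cell activation factors had 2 of 25 lower (8%, against 3.58%), Nfkbia at -0.16 and Cd69 at -0.25. Cd44 was higher at 0.21, which is 4% of the list, below the 11.4% of all genes. Of 14 BCL2 family members, Bcl2, Bcl2l1 and Bik were lower without overlap (21.4%, against 3.58%). Myc, Bcl2 and Bcl2l1 were already counted among the STAT5-induced genes. Cell cycle lists had 4 of 23 (G1 and S phase, 17.4%) and 2 of 19 (G2 and mitosis, 10.5%) higher, beside 11.4% of all genes, with Nusap1 at 0.18, Ccnf at 0.19, E2f2 at 0.14 and Mcm6 at 0.07. Neither the 17 glycolysis and hypoxia genes nor the 15 ATF4 and amino acid genes had a member without overlap. In the lists of STAT3 and Th17 genes (8 tested), STAT4 and Th1 genes (10) and interleukin-4 and STAT6 genes (9), 1 member each was lower without overlap, namely Socs3, Ifng and Il4ra. These shares (12.5%, 10% and 11.1%, beside 3.58% of all genes) each rest on 1 gene. Socs3 and Il4ra were already counted among the STAT5-induced genes. Of the glycolysis and ATF4 genes, Hk2 differed by -0.27, Chac1 by -0.20 and Slc7a5 by -0.08.

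Genes of the type I interferon response did not separate these classes. All 54 tested members overlapped and so did all 19 interferon gamma inducible GTPases and antigen presentation genes, with medians of -0.27 and -0.08. Rsad2, an antiviral protein, was at 6.54 with the JAK1, 7.12 with the TYK2, 7.25 with the JAK1/2 and 7.33 with the PAN inhibitor, but at 8.90 with IFN.6226, 9.06 with IFN.6228 and 9.08 with the JAK2 inhibitor. Each class therefore held both low and high values, and the classwise difference of -0.29 had an SE of 0.66. Cish and Rsad2 ordered the inhibitors differently: the JAK3 pair was low in Cish and high in Rsad2, the TYK2 inhibitor was the reverse, the JAK1 inhibitor was low in both and the JAK2 inhibitor high in both.

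**Figure D4:**
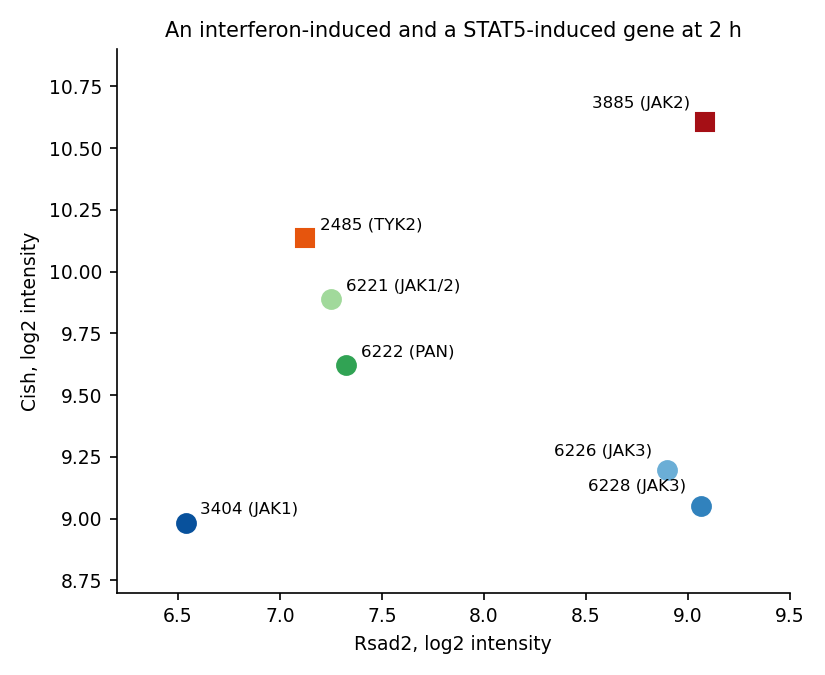
Log2 intensity of Cish (vertical) against Rsad2 (horizontal) at 2 h, with 1 point per inhibitor, labelled by code and target (circles, naming JAK1 or JAK3; squares, JAK2 and TYK2). The circles all lie below both squares on the Cish axis, while on the Rsad2 axis each class spans from about the lowest to the highest values.

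A fit with 4 target groups separated the kinds of inhibitor within the larger class. The 3 JAK1-naming inhibitors against the mean of JAK2 and TYK2 gave 30 genes higher (0.253%) and 16 lower (0.135%). Among the 16 lower were 4 STAT5-induced genes: Lif fell by 0.94 (limma adjusted p = 0.0321), Socs2 by 0.58 (0.0453), Il4ra by 0.45 (0.0452) and Lta by 0.42 (0.0448). Another 7 of the 16 belong to the type I interferon list, Rsad2 among them, which fell by 1.07 (limma adjusted p = 0.0321). Il7r was among the 30 higher, at 0.37 (limma adjusted p = 0.0238), as were Ccr9, Fcgr3, Trps1, Tdrp and Cmah. The spread in this fit came from the JAK1-naming and JAK3 arrays alone. When the 3 JAK1-naming inhibitors were fitted directly against the JAK2 and TYK2 inhibitors, no gene passed (0% in each direction, limma, 1297 at an unadjusted p under 0.05). The sizes did not change, while the adjusted p became 0.2479 for Lif and Il4ra, 0.2216 for Socs2, 0.1923 for Lta, 0.1982 for Il7r, 0.4249 for Rsad2 and 0.0910 to 0.1286 for the 5 last named. The JAK3 pair against the same mean gave 6 genes higher (0.0506%) and 0 lower (0%) in that fit, and 1226 genes at an unadjusted p under 0.05. The 6 were Pf4, Tdrp, Cxcl10, Trps1, Pecam1 and St8sia6, and Pf4 is a platelet marker. When the JAK3 pair alone was fitted against the other 2, so that the spread came from these 4 arrays, 4 genes were lower (0.0338%) and 3 higher (0.0253%). All 4 that were lower are STAT5-induced: Cish fell by 1.25 (SE 0.12, limma adjusted p = 0.0027), Socs2 by 0.73 (adjusted p = 0.0238), Socs3 by 0.63 (adjusted p = 0.0485) and Bcl2 by 0.45 (adjusted p = 0.0133). The 3 that were higher were Ppbp, Tdrp and Gm4759. Ppbp, a platelet marker, had a smaller p in this fit than every gene but Cish. The JAK3 call thus rests on which arrays set the spread, since the size of the difference in Cish was -1.25 in both fits, with an adjusted p of 0.0675 in the fit of 4 groups.

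Between the JAK1-naming and the JAK3 inhibitors themselves, 76 genes were lower (0.641%) and 2 higher (0.0169%). Of the 76, 35 are among the 54 tested type I interferon genes, led by Ifit3, which fell by 2.10, and Rsad2, which fell by 1.94. None of the 37 STAT5-induced genes passed in this contrast. Cish differed by 0.37 (limma adjusted p = 0.4651), which does not show that the 2 kinds of inhibitor act alike on it. The 2 that were higher with the JAK1-naming inhibitors were Il2 at 0.58 (SE 0.09, limma adjusted p = 0.0111) and Fasl, the death ligand, at 0.40. The JAK2 and TYK2 inhibitors are 1 array each, and a test between them borrows its spread from the other inhibitors, so no calls are given for this pair. The JAK2 array was higher than the TYK2 array by 0.47 in Cish, 0.84 in Lif and 1.96 in Rsad2.

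By 8 h the same inhibitors no longer separated in this way. No gene passed at 8 h by limma, 83 had an unadjusted p under 0.05, and the median difference over all genes was -0.06. Values of the 5 inhibitors all lay below both others in 531 genes (4.48%) and above both in 89 (0.751%). Of the 37 STAT5-induced genes, 2 (Socs2 and Tnfrsf9) were lower without overlap at 8 h and none was higher. A negative difference was found in 34, with a median of -0.11, but this was not particular to the list. All 23 G1 and S phase genes (median -0.12) and 50 of 54 type I interferon genes (-0.17) had one too, against 5 of 11 effector cytokines (0.02). Socs2 was at 8.40 to 8.69 with the 5 inhibitors, against 9.40 with the JAK2 and 8.80 with the TYK2 inhibitor, so its difference of -0.58 (SE 0.15) was close to that at 2 h. Cish overlapped at 8 h, because the TYK2 inhibitor at 8.13 lay within the 7.71 to 8.26 of the 5 inhibitors while the JAK2 inhibitor stood at 9.01. Lta and Socs3 overlapped too, at differences of -0.06 and -0.12, and Bcl6 was at -0.01. Of the 5 genes that passed at 2 h, all overlapped at 8 h, with Ccr9 at 0.34, Fcgr3 at 0.21 and the others between -0.02 and 0.06.

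Among the effector cytokines Ifng turned its order. At 8 h it was at 6.21 to 6.55 with the 5 inhibitors and at 6.18 and 6.15 with the JAK2 and TYK2 inhibitors. That is a difference of 0.18 without overlap (SE 0.12, limma unadjusted p = 0.1751). The JAK2 and TYK2 values and most of the 5 lay below 6.269, the mean level required for testing. The turned order of Ifng thus rests on dim values with a narrow gap. The change of the class difference from 2 h to 8 h was 0.70 for Ifng (SE 0.14), the value for Lif was 0.73, and for Bcl6 it was -0.48. Over all genes no such change passed (limma, adjusted p = 0.7093 for each of these 3), with 507 at an unadjusted p under 0.05. Ppbp remained higher without overlap at 8 h (6.98 to 9.42 against 6.45 and 6.79), and its part in these values was not tested.

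**Figure D5:**
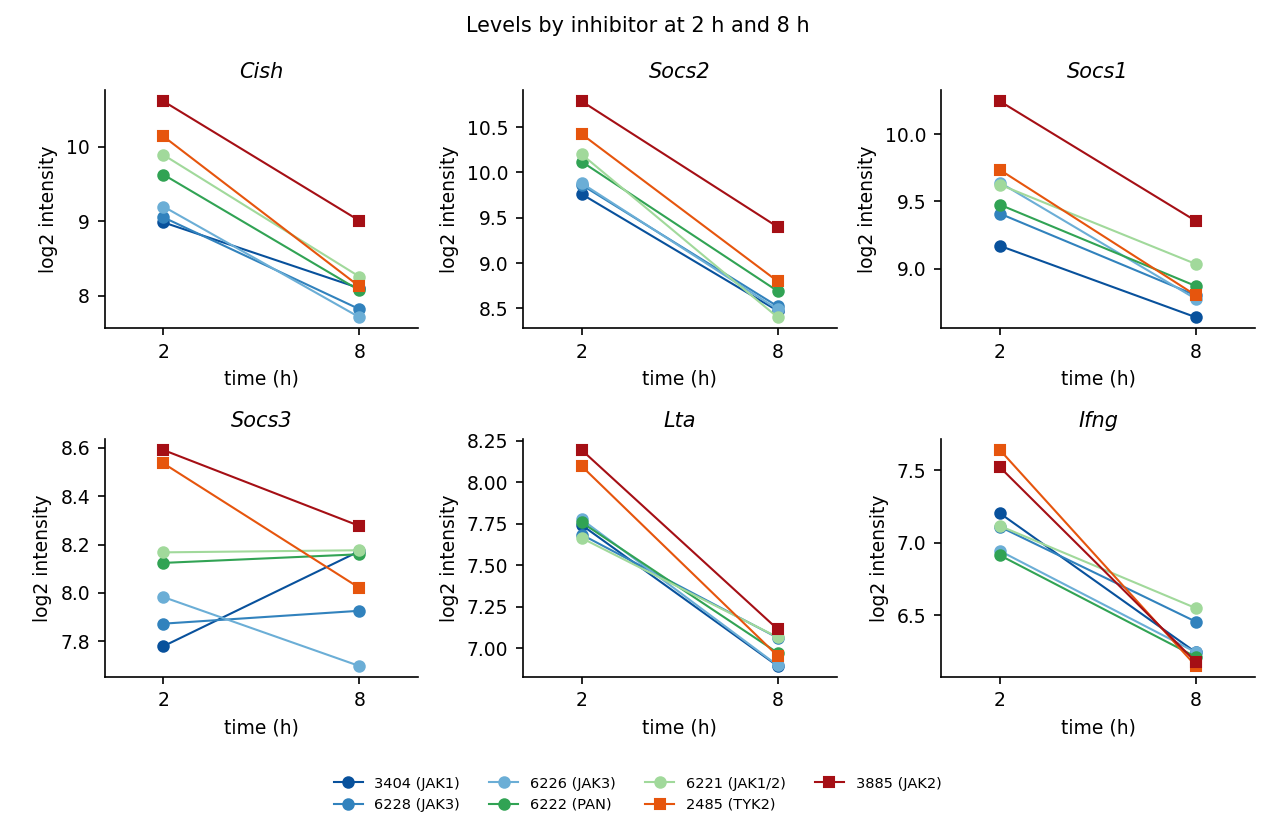
Log2 intensity of Cish, Socs2, Socs1, Socs3, Lta and Ifng at 2 h and 8 h, with 1 line per inhibitor joining its 2 arrays (circles, naming JAK1 or JAK3; squares, JAK2 and TYK2). At 2 h both squares lie above all circles in each panel, and at 8 h this holds in the Socs2 panel alone. The Ifng squares lie lowest at 8 h, by a narrow gap and below 6.269, the mean level required for testing.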

How the data were processed

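The authors deposited linear intensities, 1 per probe set, made with Affymetrix Power Tools and RMA per the submitters' processing notes (versions not given in the sources used here). They ran from 4.78 to 22879, and log2 was taken of them. Which arrays were normalized together is unknown. Of 24922 probe sets, 21425 carry 1 gene symbol, 1399 several and 2098 none. Only the first kind was used, at the brightest probe set per gene (19752 genes). RefSeq names (GRCm38.p6) matched 21347 and changed 0.

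The 11851 genes whose mean log2 value reached the 40th percentile (6.269) were tested. Limma 3.58.1 (R 4.3.3; lmFit, eBayes with trend=TRUE) compared 5 inhibitors with 2, with Benjamini-Hochberg adjustment and a threshold of 0.05. The same fit was run at 8 h and on each inhibitor's 8 h minus 2 h value, and a fit of 4 target groups had 3 residual degrees of freedom. Single genes were also compared by exact permutation. The members and the lists (19 of pathways, 11 of cell type markers) were chosen with earlier results of these data known, so lists are described by counts and medians. Named genes are those that passed or, with fewer than 5 in a direction, the 5 with the smallest p, up to 3 members per list by moderated t, and fixed pathway genes. Il2, Fasl, Ppbp, Pf4, Cdk6, Nfil3 and the other genes given to complete a count were named after their values were seen. Array number limits the precision. Alternatives were normalization, filters, probe set choice, variance moderation, log offset, call rule and members left out. Scripts were tested on simulated data. Plots used Python 3.11.15, numpy 2.4.6, pandas 2.3.3 and matplotlib 3.10.9.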

Additional observations from a re-analysis of the deposited data

Results flagged for a closer look

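Of 102 sets of 5 values examined (72 named genes and 30 list means), 5 held an inhibitor far from the other 4, and chance flags about 1 in 20 such sets. Il4ra was lowest with the JAK1 inhibitor, at 10.28 against 10.53 to 10.54. Pim1 was lowest with it as well, at 10.12 against 10.45 to 10.55. E2f2 was lowest with the JAK1 inhibitor, at 9.972, in a narrow range up to 10.02. Wdr43 was highest with IFN.6228 (JAK3), at 10.74, and this value puts Wdr43 among the overlapping genes. The mean of the 10 skeletal muscle markers was highest with the JAK1/2 inhibitor, at 7.096. Whether the muscle markers bear on other values of that array was not tested.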

How the results depend on the processing

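The count of genes that passed at 2 h (5 higher, 0 lower) was 0 with quantile normalization, cyclic loess, a 60th percentile filter, the JAK3 pair averaged, without the PAN and JAK1/2 inhibitors, or without the JAK3 pair. It was 3 with probe sets averaged, 2 at 1.5-fold or more, and 3 higher and 4 lower without the JAK1-naming inhibitors. Leaving out 1 inhibitor gave 0 to 7. The cause was not tested. With median centring the genes without overlap were 14.1% higher and 2.47% lower, and with quantile normalization 8.13% and 5.15%, against 11.4% and 3.58%. The STAT5-induced genes lower without overlap numbered 16 to 27 when 1 inhibitor was left out, with 27 without the TYK2 inhibitor. Leaving out an array can only keep or raise such a count, so its lower end of 16 was fixed in advance and tests nothing. Over all genes the share lower without overlap was then 4.47% to 5.4% without 1 of the 5, 13.5% without the JAK2 and 16.5% without the TYK2 inhibitor. Their median was -0.14, the mean -0.23. For the genes lowered by interleukin-2 the mean was 0.15, and the median 0.057 with quantile normalization, 0.11 with median centring and 0.054 with cyclic loess. In the fit of 4 groups, quantile normalization gave 16 genes (JAK1-naming against JAK2 and TYK2), 0 (JAK3 against these) and 37 (JAK1-naming against JAK3). Without a variance trend these were 11, 0 and 48, and without a filter JAK3 gave 0. For the lone JAK2 and TYK2 arrays, whose spread is borrowed from the other inhibitors, the count went from 6 to 0 without a variance trend. At 8 h, and for the change, the count stayed 0 under each alternative run.

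Some named genes that had not passed changed sign. Without the JAK1-naming inhibitors Nlrc5 was at 0.039, Irf1 at 0.041, Gzmb at 0.0011, Ifit3 at 0.65, Usp18 at 0.64, Irf7 at 0.54, Rsad2 at 0.88, Stat3 at 0.088, Mx1 at 0.72 and Junb at -0.025. Without the PAN and JAK1/2 inhibitors, Rsad2 was at 0.062, Stat3 at 0.014 and Mx1 at 0.037. Jak2 was at -0.0068 with cyclic loess and -0.029 without the JAK3 pair. With 1 inhibitor left out in turn the differences ranged as follows: Jak2 -0.014 to 0.045, Nlrc5 -0.38 to 0.0050, Osm -0.40 to 0.13, Gzmb -0.19 to 0.027, Ifit3 -1.79 to 0.57, Usp18 -1.45 to 0.28, Irf7 -0.95 to 0.015, Rsad2 -1.27 to 0.69, Stat3 -0.18 to 0.12, Mx1 -1.03 to 0.67, Phgdh -0.24 to 0.023 and Junb -0.034 to 0.16. No paired analysis was possible between the classes because every title carries the number 1 and the classes hold different inhibitors. The inhibitor pairs the 2 times, and the 8 h minus 2 h fit uses that pairing. Genes at or below 6.269 were not tested.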
